A study of Rattus norvegicus with 18 samples.

Results

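RNA levels in bufalin-treated H9c2 cells were set against those in control cells for every gene whose normalized count averaged 10 or more over the libraries compared. The members are 10679 of the 17455 genes listed in the comparison, and the rule used the level of the RNA and not its change. A further 2202 genes had a mean above 0 and under 10, and 4574 were listed at 0. The change is described at all levels of RNA, because the authors' deposited table gives an adjusted p for 3321 members only, all with a mean of at least 2259. The other 7358 members have either a p with no adjusted p (7353 genes) or no p at all (5 genes).

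H9c2 is a myoblast line from rat heart, and all cells were wild type per the labels. The groups are bufalin-treated cells, with 3 input and 3 immunoprecipitated libraries, and control cells, with the same numbers. No source used here states whether input or immunoprecipitated libraries entered the RNA values. Cells treated with periplocin form another group of the series and are used here only for values side by side. The labels give neither dose nor time, and do not state how the replicates were grown, so p-values measure the spread between these libraries. The line is a proliferating cell and not a beating heart muscle cell, which limits it as a model of heart tissue.

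Bufalin is a bufadienolide of toad venom. Such cardiotonic steroids bind the sodium and potassium pump (Na/K-ATPase) and block it, so that sodium builds up in the cell and potassium is lost. In heart muscle the sodium then slows the export of calcium, which strengthens the beat and at higher doses disturbs its rhythm. Rodent cells carry a pump subunit with low affinity for these steroids and need far more of them than human cells do.

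The comparison holds 1 value per gene and none per library, so values of single libraries cannot be shown. The level in each group was worked out from the gene's mean and its fold change, taking both groups as equal in size. These fitted means sum to 3.73e+07 normalized counts over all members in bufalin-treated cells and 3.65e+07 in control cells, while the depth of single libraries is unknown here. Mesenchymal markers were abundant, with means of 72405 for Vim and 412632 for Col1a1. Of the skeletal myoblast markers Myod1 had a mean of 716 and Cdh15 of 2259, while Pax7, Pax3 and Myf5 were listed at 0. Of the cardiac muscle markers Tnnt2 had a mean of 4293 and Hand2 of 5884, but Actc1, Myl7, Nppb and Tbx20 were listed at 0. The labelled heart origin is thus only partly visible in the RNA. Whether genes listed at 0 lacked RNA or went uncounted was not tested. Members were 4 of the 10 markers of endothelium, 3 of the 12 of leukocytes and 1 of the 9 of epithelium, and none of these 8 genes had an unadjusted p under 0.05.

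Bufalin left most of the RNA close to its control level and shifted a small set of genes by under 1.5-fold. RNA of the noncoding gene H19, of secreted factors (Spp1 and Fgf7 among them), of the osmolyte transporter Slc5a3, of chromatin enzymes (Crebbp, Dnmt3a) and of a fast myosin (Myh1) rose. RNA of Cxcl12, Tgfb3, Ccn2 and Ncald fell. Of 3321 genes with an adjusted p in the authors' deposited table, 10 (0.301%) had it under 0.05, 6 higher and 4 lower. When p-values were adjusted by the Benjamini-Hochberg method over all 10674 members that have a p, 12 genes (0.112%) passed, 8 higher and 4 lower. All 10 of the first set were among the 12, and Slc5a3 and Fgf7 were added. Both additions have no adjusted p in the authors' deposited table. A change of RNA per cell and a change in the share of cells in a given state cannot be told apart in such bulk libraries.

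Among the secreted factors, Spp1 encodes osteopontin, a phosphoprotein of bone and injured tissue that binds integrins. Its fitted mean was 21926 normalized counts in bufalin-treated cells, against 14916 in control cells, a fold of 1.47 (95% Wald interval 1.27 to 1.70). Fgf7, keratinocyte growth factor, acts on epithelial cells from the connective tissue around them. It stood at 1216 in bufalin-treated and 927 in control cells, a fold of 1.31 (1.15 to 1.49), with an adjusted Wald p of 0.0348 over all members. Fgf7 did not pass when p-values were adjusted within each of 5 levels of mean RNA, where 11 of the 12 called genes did.

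The fallers were also mostly secreted. Cxcl12 encodes the chemokine that draws cells carrying the receptor CXCR4. It stood at 23904 in bufalin-treated and 28459 in control cells, a fold of 0.840 (0.783 to 0.901). Tgfb3 encodes a transforming growth factor beta ligand, at 5493 in bufalin-treated and 6777 in control cells, a fold of 0.811 (0.738 to 0.890). Ccn2 encodes connective tissue growth factor, a matrix-associated protein, and was the most abundant of the 12 RNAs, at 112298 in bufalin-treated and 136314 in control cells, a fold of 0.824 (0.754 to 0.90). Ncald encodes the neuronal calcium sensor neurocalcin delta, at 2163 in bufalin-treated and 2724 in control cells, with the lowest fold of the 12 at 0.794 (0.720 to 0.876).

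H19, an imprinted long noncoding RNA that is high in the embryo and in regenerating muscle, stood at 18256 in bufalin-treated and 12796 in control cells. Its fold of 1.43 (1.34 to 1.52) had the narrowest interval of the 12 on the log scale, and its Wald p of 2.71e-26 was the lowest of all members. Slc5a3 encodes the sodium-coupled myo-inositol transporter that cells use to gather osmolytes. It stood at 1243 in bufalin-treated and 917 in control cells, a fold of 1.36 (1.19 to 1.55), with an adjusted Wald p of 0.00996 over all members. Myh1, the heavy chain of fast skeletal myosin, stood at 2696 in bufalin-treated and 1951 in control cells, a fold of 1.38 (1.18 to 1.61).

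Both chromatin enzymes rose by a similar amount. Crebbp encodes the histone acetyltransferase CBP, a coactivator of many transcription factors, and stood at 3548 in bufalin-treated and 2898 in control cells, a fold of 1.22 (1.11 to 1.34). Dnmt3a encodes a DNA methyltransferase that sets new methylation, and stood at 6710 in bufalin-treated and 5473 in control cells, a fold of 1.23 (1.11 to 1.35).

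The 13th gene in the order of p was Pcdha2, a cadherin-like protein of the cell surface, with an adjusted Wald p of 0.0819. Its fitted mean was 47.4 normalized counts in bufalin-treated and 122 in control cells, a fold of 0.387 (0.240 to 0.624). It shares its last exons with the other alpha protocadherins, so its count is uncertain.

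**Figure D1:**
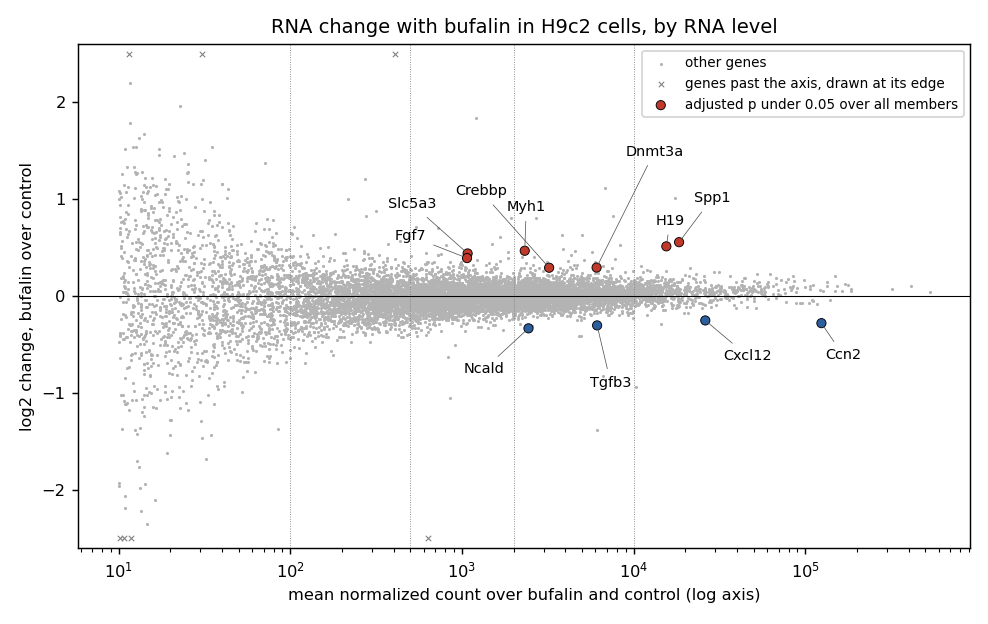
Each point is a gene, with its mean normalized count on the x axis (log scale) and its log2 change, bufalin over control, on the y axis. Dotted lines part the 5 levels, and 11 of the 12 genes with an adjusted p under 0.05 over all members are drawn and named: red points are higher and blue points lower. The named genes lie between means of 1071 (Fgf7) and 124306 (Ccn2), at the edge of the points of like mean, and their changes are smaller than those of many genes at means under 100.

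These genes had the following values with periplocin, which was compared with the same control libraries. H19 had a fold of 0.997 (0.943 to 1.06) with periplocin, Tgfb3 0.976 (0.907 to 1.05) and Ccn2 1.02 (0.924 to 1.12). Myh1 had a fold of 0.849 (0.734 to 0.983), opposite in direction to its fold with bufalin. Crebbp at 1.13 (1.04 to 1.23) and Ncald at 0.864 (0.783 to 0.954) lay on the same side as with bufalin. So did Tgfb3, and Spp1, Cxcl12, Slc5a3, Fgf7 and Dnmt3a, with log2 changes of 0.160, -0.076, 0.032, 0.173 and 0.090 with periplocin. H19, Ccn2 and Myh1 lay on the other side. The shared control libraries can by themselves put a gene on the same side in both comparisons. None of the 12 had an adjusted p under 0.05 for periplocin in the authors' deposited table. Whether the compounds differ at these genes was not tested here, and their doses are not in the labels.

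**Figure D2:**
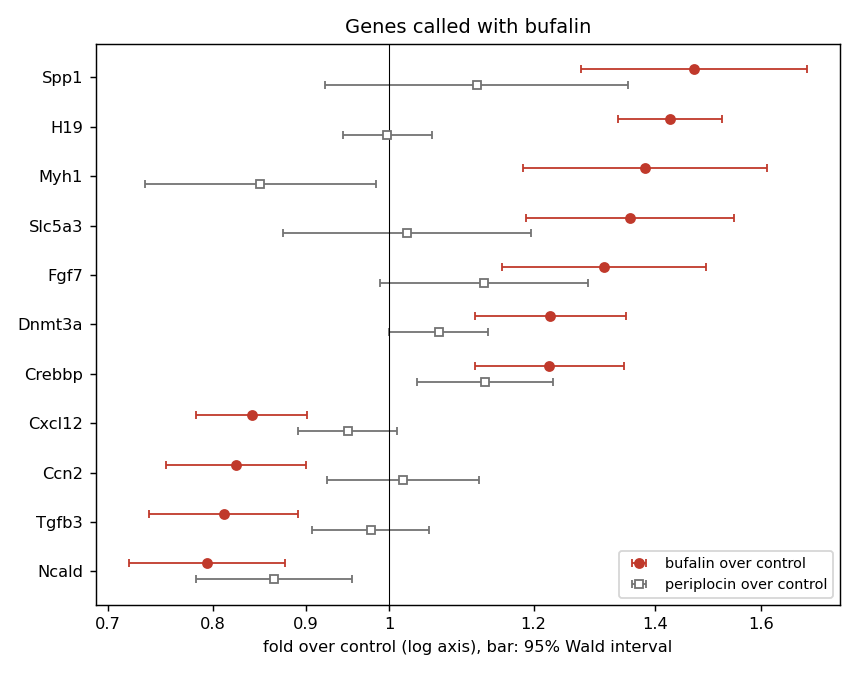
Fold over control (x axis, log scale) with 95% Wald intervals for 11 of the 12 genes called with bufalin. Filled red circles are bufalin and open grey squares periplocin, both against the same control libraries. The bufalin intervals all leave out 1, since that chose the genes, while those of periplocin include 1 except for Myh1, Crebbp, Ncald and, at its very end, Dnmt3a.

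Over all members the change was centred on 0. The median log2 change was 0.00, the quartiles were -0.09 and 0.08, and 5340 genes lay above 0 and 5339 below. The standard error had a median of 0.11. An unadjusted p under 0.05 was found for 567 of 10674 genes (5.31%), against the 5% that a test gives without any change. Of these 346 were higher (3.24%) and 221 lower (2.07%) with bufalin. The 95% interval lay within 2-fold of control for 9416 members (88.2%), so a larger change is outside the interval for these genes.

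The direction of the change went with the level of the RNA. Among the 689 most abundant genes, with a mean of at least 10000, 71.4% lay above 0 with a median log2 change of 0.04. In the 2970 genes from 2000 to 10000 the share above 0 was 54.6% and the median 0.01. It was 46.8% in the 3359 genes from 500 to 2000, 42.8% in the 2130 genes from 100 to 500, where the median was -0.03, and 48.5% in the 1531 genes from 10 to 100. Among genes with an unadjusted p under 0.05, 70 were higher and 12 lower at means of at least 10000, and 169 were higher and 89 lower from 2000 to 10000. Below that the directions were nearly even, with 70 higher and 80 lower from 500 to 2000, 23 and 25 from 100 to 500, and 14 and 15 from 10 to 100.

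The share of genes with an unadjusted p under 0.05 also went with the level. It was 1.90% from 10 to 100, 2.25% from 100 to 500, 4.47% from 500 to 2000, 8.69% from 2000 to 10000 and 11.9% at 10000 and above. In the lowest level the Wald score, which has a standard deviation of 1 when nothing changes and the standard errors are right, had a standard deviation of 0.819. In the top level it was 1.23. The exact binomial intervals of these shares, 1.27% to 2.71% and 9.61% to 14.6%, cover counting error only, since genes are not independent replicates. The smallest fold that reaches an unadjusted p of 0.05 at the median standard error was 2.11 from 10 to 100, 1.31 from 100 to 500, 1.16 from 500 to 2000, 1.11 from 2000 to 10000 and 1.09 above. Within the lowest level 21.7% of genes had an interval inside 2-fold, against 98.3% in the next level. For most genes with a mean under 100 the interval therefore did not leave out a 2-fold change.

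**Figure D3:**
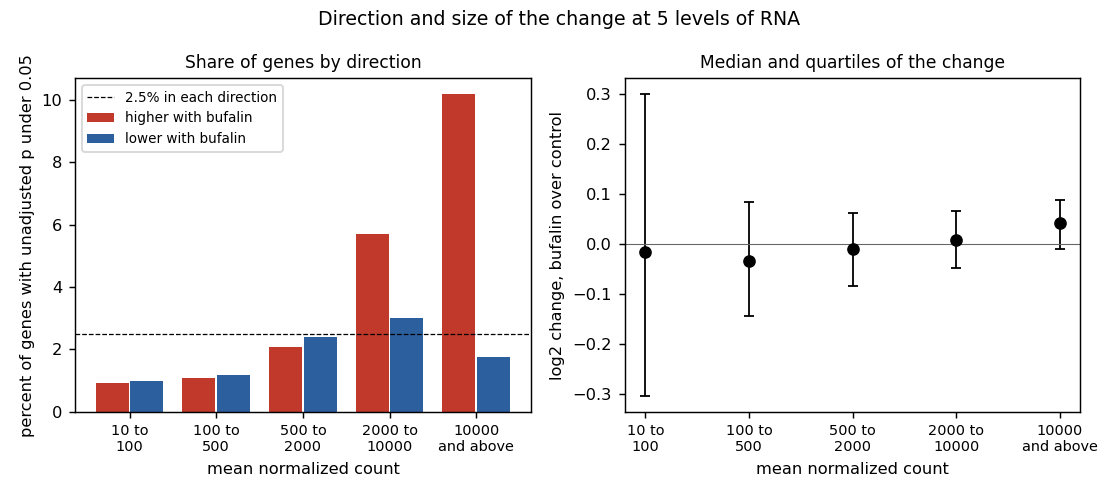
Left, the percent of genes in each level of the mean (x axis) with an unadjusted p under 0.05, red for higher and blue for lower with bufalin; the dashed line marks 2.5%, the share each direction has when nothing changes. Right, the median log2 change of each level with its quartiles; the red bars climb with the level to 10.2% and the median turns from -0.03 to 0.04.

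Genes without an adjusted p held some small p-values, but fewer than a test gives without any change. Of the 7353 such genes 246 (3.35%, against 5% without change) had an unadjusted p under 0.05, 114 higher and 132 lower. Among the genes with an adjusted p these were 321 of 3321 (9.67%). An unadjusted p under 0.001 was found for 34 members, and 10 of these had no adjusted p. Slc5a3 and Fgf7 lead these 10, and the others did not pass the adjustment over all members.

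From 500 to 2000 those others include Tnik, a kinase that activates the Wnt pathway, at 1380.5 in bufalin-treated and 1067 in control cells (fold 1.29, 1.13 to 1.48). C1qtnf1, a secreted relative of adiponectin, stood at 671 in bufalin-treated and 409 in control cells (1.64, 1.25 to 2.15). Cdc26, a subunit of the anaphase-promoting complex, stood at 652 in bufalin-treated and 1006 in control cells (0.648, 0.514 to 0.818). These 3 genes had adjusted Wald p-values of 0.136, 0.193 and 0.149, and did not pass.

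From 100 to 500 the lowest p belonged to H1f4, a linker histone, with 290 normalized counts in bufalin-treated and 145 in control cells (fold 2.0, 1.39 to 2.87, adjusted Wald p 0.126). Id2, an inhibitor of basic helix-loop-helix transcription factors, stood at 520 in bufalin-treated and 352 in control cells (1.48, 1.19 to 1.83). Fosb, which pairs with Jun proteins to form the factor AP-1, stood at 382 in bufalin-treated and 166 in control cells (2.31, 1.37 to 3.87). The lowest p among genes below control there belonged to Cnot11, a subunit of the deadenylase complex, at 387 in bufalin-treated and 517 in control cells (0.749, 0.612 to 0.916).

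From 10 to 100 the intervals were wide. Flt3lg, a growth factor of blood cells, stood at 51.9 in bufalin-treated and 17.8 in control cells (2.91, 1.37 to 6.18). Kif28p, a kinesin, stood at 1.84 in bufalin-treated and 21.8 in control cells, with a fold of 0.0844 whose interval ran from 0.0169 to 0.423. Mdfi, an inhibitor of myogenic factors, stood at 2.69 in bufalin-treated and 18.7 in control cells (0.144, 0.0343 to 0.601). The adjusted Wald p of these 3 genes was 0.669, 0.519 and 0.703, so none was shown to change.

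At means of at least 2000, beside the called genes, Mycn, a transcription factor of the Myc family, stood at 9004 in bufalin-treated and 10169 in control cells (0.885, 0.827 to 0.948). Akap5, a scaffold of protein kinase A, stood at 5252 in bufalin-treated and 5999.7 in control cells (0.875, 0.813 to 0.943). Dync1h1, the dynein heavy chain, stood at 45292 in bufalin-treated and 40680.4 in control cells (1.11, 1.05 to 1.18). The adjusted Wald p-values of these 3 genes ran from 0.193 for Akap5 to 0.220 for Dync1h1.

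The most abundant RNAs barely differed between the groups. Fn1, which encodes fibronectin, had the highest mean of all at 532706 normalized counts and a fold of 1.03 (0.937 to 1.13). Col1a1, a chain of type I collagen, had a fold of 1.08 (0.943 to 1.23), and Eef1a1, the elongation factor of translation, 1.04 (0.961 to 1.12). All 10 of the most abundant genes had folds from 1.03 to 1.09 and intervals that include 1.

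A few abundant genes were poorly measured. Among the 7018 genes averaging 500 or more, 17 had a standard error above 0.5 (named after their values were seen). Ndrg4 had a fold of 3.57 with an interval from 1.46 to 8.73, and Moap1, which promotes apoptosis, 0.164 with 0.0379 to 0.710. Hmox1, which encodes heme oxygenase 1, had a fold of 2.17 (1.03 to 4.58). Slc2a1, the glucose transporter GLUT1, stood at 1.74 (0.775 to 3.92) and Txnip, its inhibitor, at 1.12 (0.550 to 2.27). The myosin light chain Myl6 and its near copies by name, Myl6b and Myl6l, had standard errors from 1.39 to 2.31 on the log2 scale and no p. The counts of such copies are uncertain where reads can fall to either. The other members without a p were Mrps28 and Morn5.

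Gene lists are described by counts and medians, beside the same over all members: a median of 0.00, 5340 of 10679 above 0, and an unadjusted p under 0.05 in 3.24% higher and 2.07% lower. Across 42 lists with at least 10 members, 23 medians lay above 0. The lists farthest above 0 were the circadian clock and glycolysis with the hypoxia response, and those farthest below were DNA replication with mitosis, and cholesterol synthesis. In none of these 4 did a member pass the adjusted test over all members.

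The circadian clock is a loop in which Clock and Arntl switch on their own inhibitors, the Per and Cry genes, and the receptors Nr1d1 and Nr1d2. Of 15 members 13 lay above 0 and the median log2 change was 0.23, 1.18-fold. Members with an unadjusted p under 0.05 were 3 higher and 0 lower. Dbp, an output gene that binds the D-box, had a fold of 1.44 (1.18 to 1.77), Clock 1.26 (1.07 to 1.49) and Nr1d2 1.18 (1.03 to 1.35). The inhibitors Per1, Per2 and Per3 had folds of 1.23, 1.15 and 1.22, with intervals that reach 1 or below. Arntl at 0.990 (0.847 to 1.16) and Ciart at 0.820 (0.458 to 1.47) were the 2 members below 0. Only 3 of the 15 had an adjusted p in the authors' deposited table, since most have means under 2259. The adjusted Wald p of Dbp over all members was 0.204.

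Glycolysis and the hypoxia response share genes that the factor HIF1 switches on when oxygen is low. Of 33 members 30 lay above 0, the median log2 change was 0.19, and 4 had an unadjusted p under 0.05, all higher. These 4 were Mxi1, an antagonist of Myc, at 1.14-fold (1.03 to 1.25), the phosphofructokinase chain Pfkl at 1.23 (1.02 to 1.48), Ddit4, an inhibitor of mTORC1, at 1.28 (1.01 to 1.64), and the histone demethylase Kdm3a at 1.40 (1.0 to 1.94). Hk2 at 1.55 (0.899 to 2.66) and Slc2a1 had larger folds with intervals that include 1, while Gapdh at 1.02 (0.896 to 1.15), Eno1 at 0.989 (0.915 to 1.07) and Pkm at 1.04 (0.967 to 1.12) had folds near 1. Weighted by the precision of each gene, the mean of the list was 0.07, well under its median.

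Promoters were also searched for short motifs of the factors tied to these lists. RefSeq sequences of build GRCr8 were matched to 8719 members (81.6%), and the 250 bases before each listed start were searched on both strands. A gene was counted if any of its listed starts held the motif. The E-box CACGTG, the site of Clock and Arntl, was found in 4 of 14 clock genes (28.6%), in 8.66% of all members with a sequence and in 5.59% of all promoters. The D-box TTANGTAA was found in 1 clock gene, Per2, against 1.12% of members. The hypoxia core ACGTG, which every E-box of these letters also holds, was found in 16 of 29 genes of glycolysis and hypoxia (55.2%), against 23.4% of members. The sterol motif TCACNCCAC was found in 0 of 18 cholesterol genes, against 1.01% of members. These are counts of letters in a window and not measured sites. The lists include genes that Clock and Arntl or HIF1 are known to switch on. Their shares of the motifs therefore do not depend on any change with bufalin. The 4 clock promoters with an E-box are given first, with the E-box in capitals. Those of Mxi1 and Ddit4 follow, the 2 hypoxia genes with a core and an unadjusted p under 0.05, with that core in capitals. Their positions are chr7:115206577-115206826 (plus strand) for Tef, chr4:143174200-143174449 (plus) for Bhlhe40, chr10:84229455-84229704 (minus) for Nr1d1, chr2:186112247-186112496 (minus) for Ciart, chr1:262348392-262348641 (plus) for Mxi1 and chr20:28437038-28437287 (minus) for Ddit4, all in GRCr8.
Tef: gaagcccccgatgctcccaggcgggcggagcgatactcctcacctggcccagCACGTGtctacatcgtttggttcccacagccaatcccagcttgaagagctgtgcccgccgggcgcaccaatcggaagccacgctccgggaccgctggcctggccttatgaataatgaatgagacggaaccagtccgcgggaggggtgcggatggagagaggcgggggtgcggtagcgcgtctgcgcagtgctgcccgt
Bhlhe40: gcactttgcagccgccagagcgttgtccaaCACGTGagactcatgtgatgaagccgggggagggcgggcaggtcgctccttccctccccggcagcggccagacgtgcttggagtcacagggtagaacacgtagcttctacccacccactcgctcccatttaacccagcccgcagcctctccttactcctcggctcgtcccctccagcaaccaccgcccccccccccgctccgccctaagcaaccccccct
Nr1d1: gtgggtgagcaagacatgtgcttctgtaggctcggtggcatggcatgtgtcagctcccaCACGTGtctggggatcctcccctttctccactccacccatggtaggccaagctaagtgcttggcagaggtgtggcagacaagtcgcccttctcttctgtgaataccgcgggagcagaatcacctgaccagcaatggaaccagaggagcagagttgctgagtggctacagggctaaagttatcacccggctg
Ciart: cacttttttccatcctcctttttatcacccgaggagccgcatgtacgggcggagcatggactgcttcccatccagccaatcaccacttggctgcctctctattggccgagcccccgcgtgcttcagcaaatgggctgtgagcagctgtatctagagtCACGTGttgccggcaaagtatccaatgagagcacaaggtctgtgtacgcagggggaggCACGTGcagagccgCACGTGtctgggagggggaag
Mxi1: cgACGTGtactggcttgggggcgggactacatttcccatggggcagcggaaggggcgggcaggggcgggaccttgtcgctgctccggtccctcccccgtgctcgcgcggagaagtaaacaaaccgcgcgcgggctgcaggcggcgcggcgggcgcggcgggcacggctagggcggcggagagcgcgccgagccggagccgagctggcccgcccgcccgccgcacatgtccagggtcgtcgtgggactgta
Ddit4: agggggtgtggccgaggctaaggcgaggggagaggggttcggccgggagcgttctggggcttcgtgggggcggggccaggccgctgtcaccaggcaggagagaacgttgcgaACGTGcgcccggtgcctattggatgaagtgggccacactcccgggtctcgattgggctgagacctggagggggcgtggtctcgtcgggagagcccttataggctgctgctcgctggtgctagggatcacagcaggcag

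The E-boxes began 198, 220 and 191 bases before the start in Tef, Bhlhe40 and Nr1d1, and 21 before it for the nearest of 3 in Ciart. The RNA of these 4 genes had folds of 1.11 (0.981 to 1.26), 1.44 (0.861 to 2.39), 1.46 (0.659 to 3.21) and 0.820 (0.458 to 1.47) in the same order. All 4 intervals include 1, and Dbp, Clock and Nr1d2 held no E-box of these letters in the window.

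Cholesterol synthesis and uptake is driven by the factor SREBP2 when sterols in the cell are low. Of 26 members 4 lay above 0, the median log2 change was -0.12, and 7 had an unadjusted p under 0.05, all lower. The 7 were enzymes of the pathway: Dhcr7 at 0.856-fold (0.764 to 0.958), Fdft1 at 0.898 (0.830 to 0.972), Idi1 at 0.871 (0.780 to 0.973), Hmgcs1 at 0.917 (0.852 to 0.988), Hsd17b7 at 0.845 (0.728 to 0.980), Fdps at 0.905 (0.825 to 0.992) and Msmo1 at 0.892 (0.797 to 0.999). The regulator Srebf2 itself stood at 1.02 (0.938 to 1.12). Fatty acid synthesis had 3 of 15 members above 0 and a median of -0.07, with Acly at 0.883 (0.791 to 0.985) and the regulator Srebf1 at 1.20 (1.01 to 1.43).

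**Figure D4:**
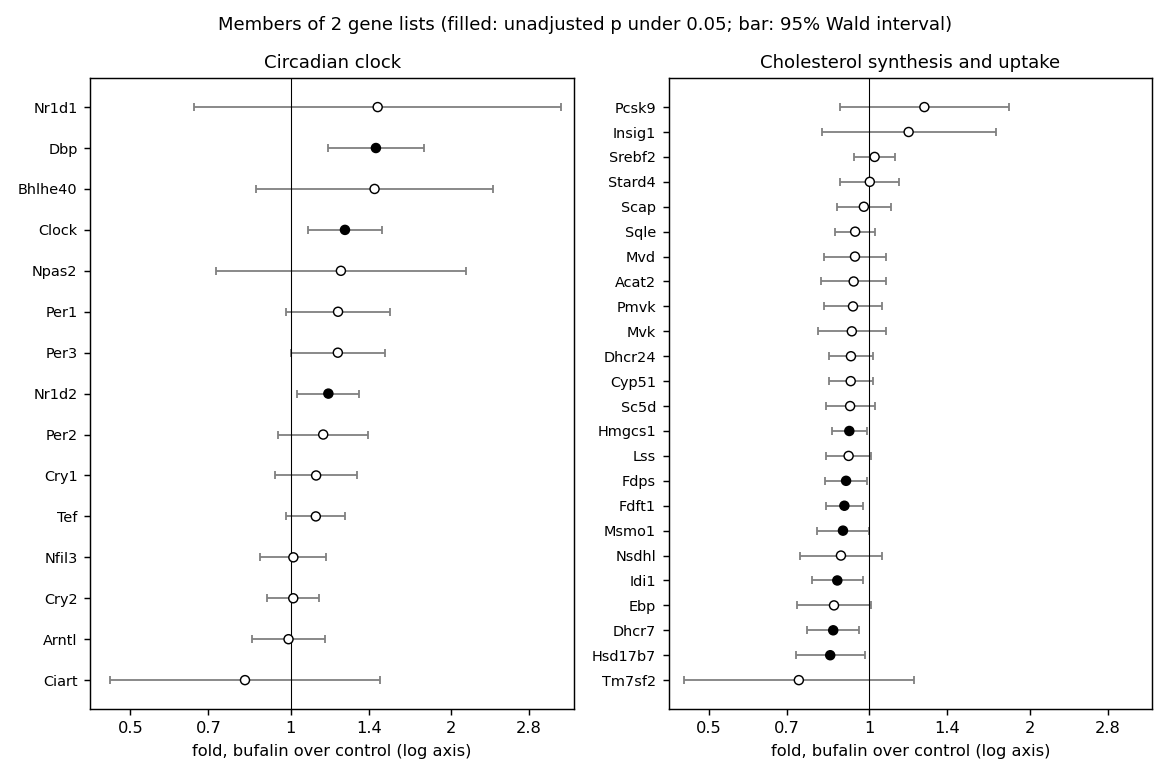
Fold, bufalin over control (x axis, log scale), with 95% Wald intervals for the 15 clock genes and 24 of the 26 genes of cholesterol synthesis and uptake. Filled points have an unadjusted p under 0.05. Filled clock genes (Dbp, Clock, Nr1d2) lie right of 1 and the 7 filled cholesterol genes left of it.

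DNA replication and mitosis had 8 of 42 members above 0 and a median of -0.12, and 3 had an unadjusted p under 0.05, all lower. E2f1, which switches on genes of S phase, had a fold of 0.758 (0.627 to 0.917). The helicase subunit Mcm7 had 0.794 (0.673 to 0.938) and the cyclin Ccna2 0.756 (0.592 to 0.966). The growth marker Mki67 stood at 0.971 (0.868 to 1.09). Only 9 of the 42 had an adjusted p in the authors' deposited table.

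Genes of histone acetylation and methylation had 28 of 33 members above 0 and a median of 0.09, and 7 had an unadjusted p under 0.05, all higher. Beside the called Crebbp these included the acetyltransferase Kat6a at 1.10 (1.03 to 1.19), the deacetylases Hdac5 at 1.14 (1.02 to 1.29) and Sirt1 at 1.30 (1.03 to 1.65), and the acetyl-histone reader Brd2 at 1.16 (1.0 to 1.34). The deacetylases Hdac1 at 0.94 (0.875 to 1.01) and Hdac3 at 0.938 (0.842 to 1.05) were among the 5 members below 0. The m6A writers, erasers and readers had 15 of 18 members above 0 with a median of 0.04, led by the writer subunit Zc3h13 at 1.11 (1.04 to 1.20) and the eraser Alkbh5 at 1.25 (1.04 to 1.51).

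In the TGF-beta list the called members lay below control and the inhibitory Smads above it. The ligands Tgfb3 and Tgfb2 stood at 0.811 and 0.892 (0.833 to 0.955) and the target Ccn2 at 0.824, while the ligand Tgfb1 stood at 1.07 (0.927 to 1.22). The inhibitors Smad7 and Smad6 stood at 1.37 (1.11 to 1.68) and 1.30 (0.984 to 1.73), the latent binding protein Ltbp2 at 1.22 (1.10 to 1.36) and the target Tgfbi at 1.10 (1.03 to 1.18). With 3 higher and 3 lower at an unadjusted p under 0.05, the median over 22 members was 0.03 and the mean weighted by precision -0.02. Tgfb3 and Ccn2 are the called members. The receptors Tgfbr1 at 1.01 (0.845 to 1.21) and Tgfbr2 at 0.936 (0.868 to 1.01) had intervals that include 1.

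The list of bone morphogenetic protein (BMP) and Id genes had 14 of 19 members above 0 and a median of 0.08. Members with an unadjusted p under 0.05 included the targets Id2 and Id4, at 1.48 and 1.69 (1.07 to 2.68). Another was Fst, which encodes the activin inhibitor follistatin, at 0.842 (0.726 to 0.976). Targets of YAP and TEAD, the effectors of the Hippo pathway, had 4 of 21 members above 0 and a median of -0.06, with Ccn2 called and Crim1 at 0.887 (0.801 to 0.983), but Ptpn14, an inhibitor of YAP, at 1.11 (1.03 to 1.19). Wnt and Notch genes had 19 of 25 above 0 and a median of 0.09. At an unadjusted p under 0.05, 2 were higher, Rbpj at 1.16 (1.04 to 1.29) and Notch1 at 1.19 (1.02 to 1.38). At the same limit 1 was lower, Nkd2, with a log2 change of -0.198.

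Matrix genes were mostly above 0, with 22 of 29 fibrillar and basement membrane genes at a median of 0.06 and 15 of 18 collagens at 0.10. Sparc, a collagen-binding protein, stood at 1.11 (1.03 to 1.20) and the laminin chain Lamc1 at 1.08 (1.01 to 1.15), while Col8a1 stood at 0.897 (0.813 to 0.989). The matrix median was 0.03 after subtracting the median of genes of like level, and that of the collagens 0.06, as was their weighted mean. Smooth muscle contractile genes had 3 of 14 above 0 and a median of -0.06, with calponin (Cnn1) at 0.814 (0.695 to 0.952), the coactivator Myocd at 0.877 (0.773 to 0.994) and tropomyosin Tpm1 at 0.918 (0.864 to 0.976). Among myogenic and sarcomere genes, Myh2, another fast myosin, stood at 1.56 (1.04 to 2.36) beside the called Myh1, and 18 of 31 lay above 0, with a median of 0.07 and a weighted mean of 0.0047.

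Genes tied to the target of bufalin showed no common direction. The list of pump subunits, ion carriers and osmolyte genes had 9 of 15 members above 0 and a median of 0.03. The pump's beta subunit Atp1b1 stood at 0.991 (0.914 to 1.08). Nfat5, the transcription factor of the osmotic response, stood at 1.15 (1.05 to 1.25) beside the called Slc5a3, while its other known targets Slc6a6, the taurine transporter, and Akr1b1, aldose reductase, stood at 0.902 (0.781 to 1.04) and 0.924 (0.815 to 1.05).

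Large complexes had medians near 0. Cytosolic ribosomal proteins had 66 of 80 members above 0 with a median of 0.04, and 6 higher and 0 lower at an unadjusted p under 0.05. Their median was 0.01 after subtracting that of genes of like level. Nuclear-encoded respiratory chain genes had 25 of 76 above 0 (median -0.04, weighted mean -0.02), mitochondrial ribosomal proteins 28 of 71 (-0.03 and -0.0030) and proteasome subunits 8 of 38 (-0.04 and -0.03). Immediate early genes, the quick responders to outside signals, had 13 of 29 above 0, a median of -0.01 and a weighted mean of 0.01, with Fosb and Atf3 (1.54, 1.07 to 2.21) at an unadjusted p under 0.05. The integrated stress and unfolded protein response had 22 of 32 above 0 and a median of 0.05, with 4 higher and 1 lower at an unadjusted p under 0.05. Among the 4 were the sensor Ern1 at 1.26 (1.07 to 1.49) and the phosphatase subunit Ppp1r15a at 1.37 (1.01 to 1.88), and the lower one was Edem1, which helps clear misfolded glycoproteins, at 0.904 (0.819 to 0.997). The median of this list was 0.03 after subtracting that of genes of like level, and its weighted mean was 0.03.

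**Figure D5:**
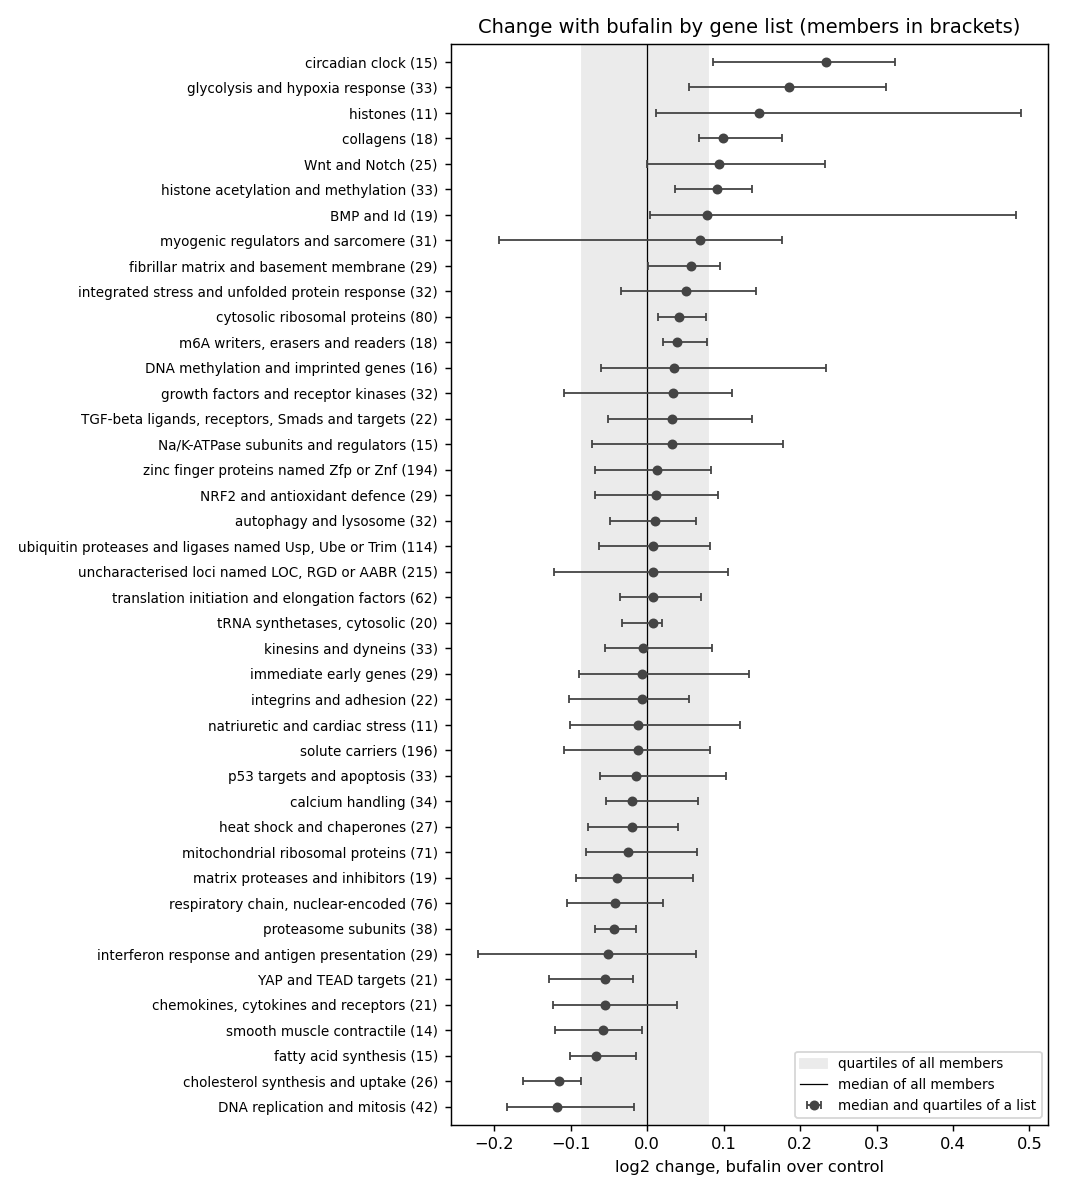
Median log2 change, bufalin over control (x axis), with quartiles for each list or family with at least 10 members (numbers in brackets). The grey band spans the quartiles of all members, from -0.09 to 0.08. The medians of the clock (0.23), glycolysis and hypoxia (0.19), histones (0.15, with a mean weighted by precision of -0.01), collagens (0.10), Wnt and Notch (0.09) and histone acetylation and methylation (0.09) lie right of the band, and those of cholesterol synthesis and DNA replication (both -0.12) left of it.

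Gene length went with the change among genes with means from 500 to 10000. In the level from 2000 to 10000 the median log2 change was -0.01 in 201 genes under 5 kb and 0.03 in 480 genes of 100 kb and above, and from 500 to 2000 it was -0.04 and 0.01. At an unadjusted p under 0.05, genes of 100 kb and above from 2000 to 10000 split into 44 higher and 15 lower. Those from 5 to 20 kb split into 27 and 31, and those under 5 kb into 10 and 9. At means of at least 10000 the medians held no steady order, at 0.042 under 5 kb, 0.035 from 5 to 20 kb and 0.058 from 100 kb. There 10 genes were higher and 1 lower under 5 kb, and 11 and 1 from 100 kb, at an unadjusted p under 0.05. From 100 to 500 the median was -0.063 under 5 kb, -0.012 from 20 to 50 kb and -0.024 from 100 kb. In the lowest level the order was the other way, at 0.04 under 5 kb and -0.06 from 100 kb. Lengths are those of the gene body in RefSeq, GRCr8, known for 10570 members. The part of length in the changes of single genes was not tested.

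The peak list of the bufalin comparison gives a further readout from the same series, regions enriched with an antibody to the mark m6A. It holds 9866 peaks, and 5109 members (47.8%) have at least 1. Genes higher at an unadjusted p under 0.05 more often had a peak than genes lower in each of the 5 levels, though hardly so in the lowest. These were 63 of 70 higher genes and 9 of 12 lower at means of at least 10000, 140 of 169 (82.8%) and 55 of 89 (61.8%) from 2000 to 10000, and 47 of 70 (67.1%) and 35 of 80 (43.8%) from 500 to 2000. They were 11 of 23 and 6 of 25 from 100 to 500, and 2 of 14 and 2 of 15 below. The remaining genes had shares of 70.9%, 70.4%, 54.7%, 28.3% and 3.73% in the same order of levels. At means of at least 2000 the order held within lengths. Under 20 kb 44 of 61 higher and 22 of 44 lower genes had a peak, and 55.4% of the remaining genes. At 50 kb and above these were 95 of 103, 28 of 35 and 83.5%. The mean change of the mark over a gene's peaks lay below 0 in 179 of 263 higher genes with a peak. It did so in 29 of 107 lower genes and in 2599 of 4739 of the remaining genes. Enrichment was read as immunoprecipitated over input RNA, so it may not be independent of the RNA values. This is a description over genes of 1 set of libraries, and no test was made of it.

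All 12 called genes had a peak, between 1 and 9 each and 33 in all. They all have means above 500, where peaks are common. Among genes without an unadjusted p under 0.05 the share with a peak was 54.7% from 500 to 2000, 70.4% from 2000 to 10000 and 70.9% above. H19 had 1 peak at chr1:215746388-215746635 (rn6, minus strand), with an enrichment of 1.44-fold in the authors' deposited list. Crebbp had 9 and Myh1 7, while Ncald and Ccn2 had 1 each. The false discovery rate of the change of the mark was 1 for each of the 33 peaks in the authors' deposited list, where 3 of the 9866 peaks were under 0.05. The largest changes were in Myh1, up to 0.51 on the log2 scale, and in Crebbp, down to -0.40, in the authors' deposited list, with the direction read as bufalin over control.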

How the data were processed

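The series measured RNA of rat H9c2 cells in 18 libraries; the groups used here are bufalin and control, 3 input and 3 immunoprecipitated libraries each per the labels. The library kit kept the strand and tagged molecules with identifiers, per the labels. HISAT2, StringTie and DESeq with build rn6 are named in the submitters' processing notes, without versions. The deposited table holds comparisons and no values per library, so the planned fallback to a count model did not apply and the authors' results were used.

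The signal in the deposited table is a gene's average count after scaling for depth, under the column name of the authors' DESeq2 output. The log2 fold changes with their errors were taken as the authors gave them. The score is the authors' Wald statistic and the p-values are Wald p-values in the deposited table: both were recomputed from the change and its error with differences under the rounding of the file. The adjusted p-values were deposited by the authors for genes over a limit of the mean, as the authors' DESeq2 run would filter them. Whether input or immunoprecipitated libraries entered is not stated. Fold enrichment in the peak list was read as the ratio of immunoprecipitated over input RNA, per the file headers only by name, and the log10 values there are the authors' deposited FDR of the change; peak starts were counted from 0 in the file and are given from 1.

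Control means worked out from the bufalin and periplocin comparisons were set side by side after removing the median ratio between them. They coincided within 1% in 10608 of 10608 genes when both changes were read with the treated cells on top. Under any other reading at most 10.9% did. From the authors' values, folds, 95% Wald intervals, fitted group means and a Benjamini-Hochberg adjustment over 10674 genes were computed, with a threshold of 0.05. The adjustment was run on simulated data drawn with the authors' standard errors. That checked the computation and cannot show whether those errors are right. Named genes are all called genes, in each level the 4 higher and 4 lower with the lowest p and a proper symbol, and up to 4 members per list or those that describe it. Some that the rule takes are not reported here, and all counts include them. The members, the 29 lists, the 14 families and the tests were chosen with earlier results of these data known. Alternatives covered thresholds, filters on the mean, centring and averages. A RefSeq table of GRCr8 gave lengths for 99.0% of members. Computing used Python 3.11.15 with pandas 2.3.3, numpy 2.4.6 and scipy 1.17.1, and plots matplotlib 3.10.9.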

Additional observations from a re-analysis of the deposited data

How the results depend on the processing

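With a threshold of 0.1 the authors' adjusted p called 21 genes (14 higher, 7 lower) in place of 10, and at 0.01 it called 8. At an unadjusted p of 0.01 there were 139 genes in place of 567. The 12 genes of the adjustment over all members were also the 12 found without a filter and with means of at least 100 or 500. With means of at least 2000 there were 10, without Slc5a3 and Fgf7, which lie under that limit. With means of at least 5000 there were 9, of which 7 were among the 12, with Nupr1 (fold 1.30, 1.13 to 1.5) and Ltbp2 (1.22, 1.10 to 1.36) added. Adjusted within each level 11 passed, without Fgf7, and at a threshold of 0.1 there were 13. The median change of the lowest level was -0.02 and its mean weighted by precision -0.0103. Medians of the 42 lists were less stable: of 126 values under 3 alternatives, 81 kept their sign and stayed within 1.5 times the median, 37 kept their sign and moved by more, and 8 changed sign. Weighting by precision turned the sign for histones (0.15 to -0.0087), TGF-beta (0.03 to -0.02), growth factors and receptor kinases (0.03 to -0.0027), immediate early genes (-0.0066 to 0.01) and kinesins with dyneins (-0.0055 to 0.0053). Subtracting the median of the level turned it for NRF2 and antioxidant defence (0.01 to -0.01), autophagy and lysosome (0.0097 to -0.0018) and tRNA synthetases (0.0070 to -0.01). Weighting also moved DNA methylation and imprinted genes, which hold H19, from 0.04 to 0.16. The cause of these moves was not tested.

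No paired analysis was possible because the deposited table holds 1 value per gene and none per library. For the same reason leaving out each replicate and another count model were not run, so whether 1 library decides a call was not tested. Precision at low means limits what can be seen, and library depth is unknown here.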
